A study of Mus musculus with 13 samples.

Results

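The epidermal differentiation complex is a cluster of genes for the proteins that build the outermost layer of the skin. It was followed here through 54 genes, each represented by the array probe with the highest mean among those that carry its symbol alone. The rule took the late cornified envelope genes (Lce, 19 genes), the small proline-rich genes (Sprr, 13 genes), loricrin and involucrin (Lor and Ivl, 2 genes), the fused S100 genes (Crnn, Flg2, Hrnr, Rptn, Tchh and Tchhl1, 6 genes) and the small calcium-binding S100a genes (14 genes). All 54 lie on chromosome 3 in RefSeq's gene table (GRCm38.p6). After a filter on dim probes, 49 of the 54 stood among the 16322 genes tested. Filaggrin (Flg) and Lce1m had no probe with their symbol alone in the annotation used and are not analysed here.

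The study sampled whole skin from the back of C57Bl6 males at P30, when the hair follicles were in anagen, their growth phase. Collections ran at 4 h steps between ZT2 and ZT50 (ZT is the number of hours since lights on), in 12 h of light and 12 h of dark. All mice were of this strain, with no mutation or treatment in the labels, and had free access to standard chow. RNA of 3 mice was mixed in equal amounts for each of the 13 pools (39 mice), and each pool went onto 1 array. There are thus 3 pools for the hour 2 h after lights on, and 2 for each of 6, 10, 14, 18 and 22 h. Pools of different mice are the replicates, so every p-value rests on the spread between pools, whereas differences among the mice of a pool cannot be seen. Array medians lay between 440.0 and 483.2 intensity units. Whole skin mixes epidermis, hair follicles, dermis, fat and muscle, so fewer cells of a type and less RNA per cell cannot be told apart. The keratins of the labelled tissue were present, with mean intensities of 9698 for Krt14 (basal epidermis), 10476 for Krt10 (suprabasal epidermis) and 20082 for Krt71 (inner root sheath).

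As a keratinocyte leaves the basal layer it stops dividing and, near the surface, replaces its membrane with the cornified envelope, a shell of proteins joined by transglutaminases. Involucrin and envoplakin line the shell first, loricrin and the SPRR proteins fill it, and LCE proteins are added late. Filaggrin-like fused S100 proteins bind keratin filaments, and the S100A proteins are calcium sensors, of which S100a8 and S100a9 are also made in quantity by neutrophils. AP-1, a dimer of Jun and Fos proteins, is a known activator of many of these genes, and CLOCK with BMAL1, the activators of the circadian clock, bind the E-box CACGTG.

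No gene of the complex followed a 24 h wave, drifted with time or differed between light and dark at an adjusted p under 0.05 in limma, which fits a linear model to every gene; genes that pass are referred to as called. Their levels still varied more between pools than those of most genes. The SD of log2(intensity + 16) over the 13 pools had a median of 0.17 in the 49 genes, and of 0.11 over all genes tested. The spread was unequal among the families. The median SD was 0.22 in the Lce genes, 0.21 in the Sprr genes, 0.13 in the fused S100 genes and 0.13 in the S100a genes. Within the Sprr genes it was 0.28 in the 9 Sprr2 genes. Sprr1b, Sprr3, Sprr4 and Sprr1a had SDs of 0.16, 0.14, 0.08 and 0.03. The widest single gene was Lce3c, with an SD of 0.79, at the 99.9th percentile of all genes tested, followed by Sprr2f (0.44) and Sprr2h (0.34). At the other end stood Sprr1a, an envelope protein induced in stressed and differentiating keratinocytes, with an SD of 0.03 and intensities from 18226 to 20030, and S100a1 with an SD of 0.05. Trichohyalin (Tchh), which hardens the inner root sheath of the hair, was also steady, at 15043 to 17338.

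**Figure D1:**
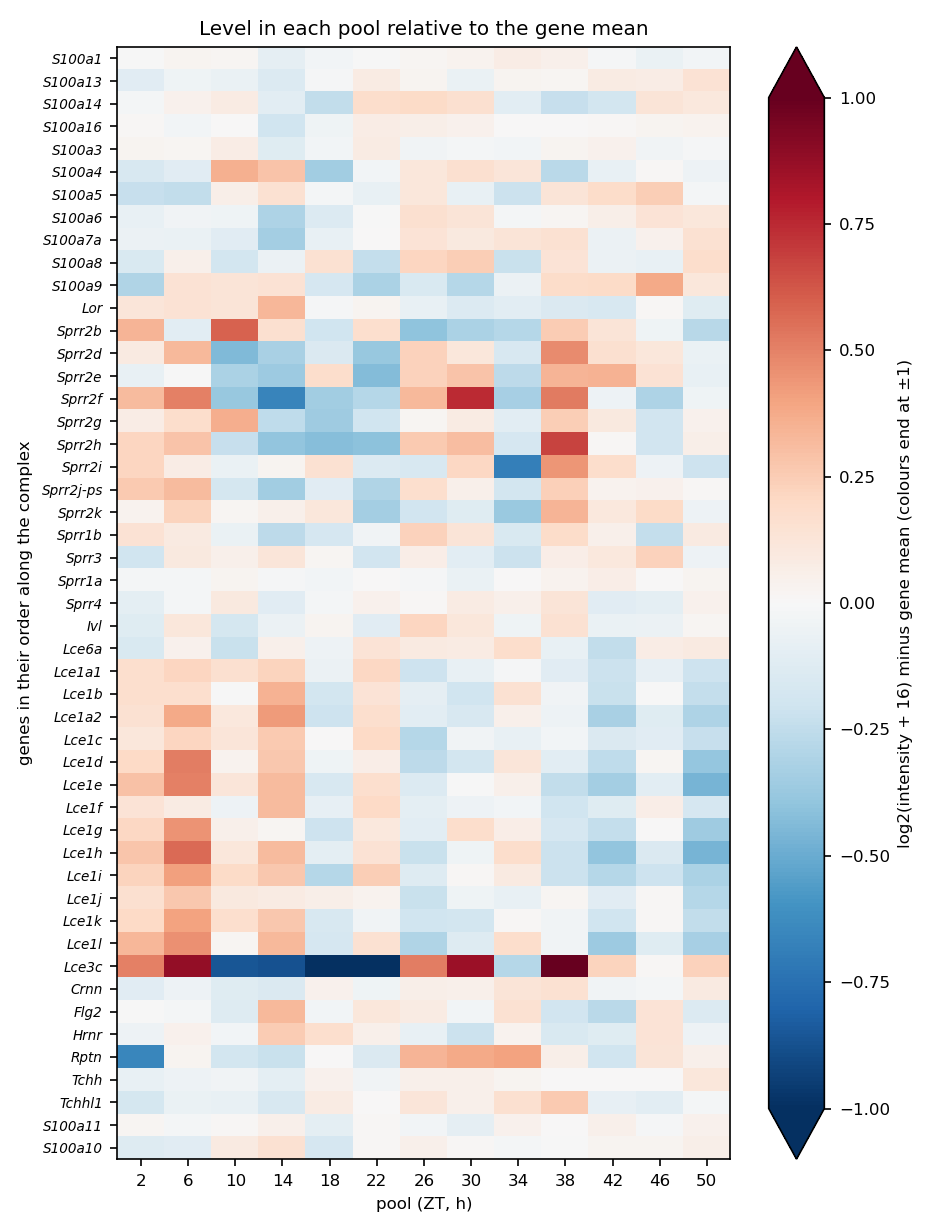
Level of each of the 49 genes (rows, in their order along the complex) in each of the 13 pools (columns, ZT in h), as log2(intensity + 16) minus the gene's own mean over the pools; red is above and blue below that mean, and the colour scale ends at 1 in either direction. The Lce1 block is red in most pools of the first day and blue in most later ones, and Lce3c spans the widest range, from 340.1 at ZT22 to 1795 at ZT38.

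The Lce1 genes, 13 neighbouring copies that encode late envelope proteins, were the family with the most uniform course. Each of them had a slope below 0 over the 48 h, in the same fit that held the 24 h wave. The slopes lay between -0.34 and -0.15 log2 per 24 h with a median of -0.21, against a median of -0.01 over all genes tested. Their probe values are described here gene by gene because a probe's brightness depends on its sequence, so levels were not set against each other between genes.

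Lce1e stood at 3312, 3836, 2927, 3353, 2410.3 and 3026 intensity units in the pools from ZT2 to ZT22. From ZT26 to ZT50 it stood at 2444, 2693, 2797, 2273, 2124, 2499.8 and 1945. Its highest pool was thus ZT6 and its lowest ZT50, and the ranges of the 2 days overlapped. The slope was -0.34 ± 0.07 log2 per 24 h (SE, 13 pools, limma adjusted p = 0.256). Lce1h followed the same course, at 4101, 4995, 3643, 4202, 3154 and 3725 on the first day and 2886, 3272, 3814, 2911, 2565, 3044 and 2439.6 from ZT26 on. Its slope was -0.34 ± 0.08 log2 per 24 h (SE, limma adjusted p = 0.260). Both had their maximum at ZT6 and their minimum in the last pool. Lce1a1 was at 7639.5, 7861, 7591, 7927, 6504 and 7813 on the first day, with ZT18 low among these. In the later pools it was at 5870.4, 6429, 6734, 6259, 5847, 6420.0 and 5858, and its slope was -0.21 ± 0.05 (SE, limma adjusted p = 0.325).

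Lce1c and Lce1j were the members whose days did not overlap. Lce1c was at 7885, 8449, 7944, 8754, 7323 and 8379 from ZT2 to ZT22 and at 5996, 7115, 6924, 7151, 6598, 6729.7 and 6209.6 from ZT26 to ZT50. All 7 later pools of Lce1c thus lay below all 6 pools of the first day. Lce1j was at 6985 to 8223 on the first day and at 5567 to 6878 later. Of all genes tested, 42 (0.257%) had every later pool below every pool of the first day. Lce1g, at 666, 793, 598, 584, 495 and 619.8 and then 533, 652, 602, 510.3, 485, 576 and 445, overlapped between the days. The remaining Lce1 genes (Lce1a2, Lce1b, Lce1d, Lce1f, Lce1i, Lce1k and Lce1l) had slopes from -0.27 to -0.15.

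Loricrin, the most abundant envelope protein of the epidermis, had a slope of the same sign. Lor was at 8310.0, 8444, 8365, 9619, 7584 and 7773 on the first day and at 7239, 6937, 7103, 6902, 6826, 7712 and 7029 later, highest at ZT14 and lowest at ZT42. Only ZT46 of the later pools reached into the range of the first day, whose lowest pool was ZT18. The slope was -0.18 ± 0.05 log2 per 24 h (SE, limma adjusted p = 0.353). Lce6a, which lies next to the Lce1 block, had a slope of 0.07 ± 0.06 (SE, limma adjusted p = 0.774), and was lowest at ZT42 (1378) and highest at ZT34 (1854).

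**Figure D2:**
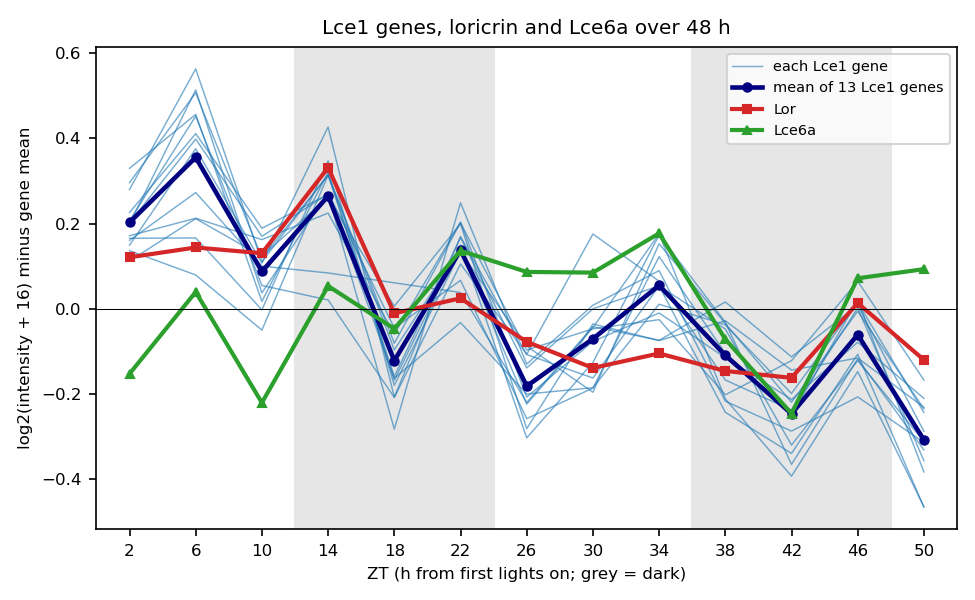
Course of the 13 Lce1 genes (thin lines), their mean (dark blue), Lor (red) and Lce6a (green) over ZT in h, as log2(intensity + 16) minus each gene's mean; grey marks the dark. The Lce1 mean was highest at ZT6 (0.36) and lowest at ZT50 (-0.31), Lor was highest at ZT14 (0.33), and Lce6a had a slope above 0.

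None of these slopes was called, and neither was that of any other gene. Of 16322 genes 0 (0%) had a drift at an adjusted p under 0.05 in limma, while 912 (5.59%) were lower with time and 525 (3.22%) higher at an unadjusted p under 0.05. On that unadjusted scale 14 of the 49 genes of the complex were lower, namely the 13 Lce1 genes and Lor, and 5 were higher. Leaving out 1 pool at a time left 10 to 13 Lce1 genes at that level, with 10 when ZT50 was left out and 11 when ZT2 or ZT38 was. The median slope of the family then ranged from -0.25 to -0.20, and all 13 slopes stayed below 0 under quantile normalization and under median centring of the arrays. The share of all genes at that unadjusted level in the refits with 1 pool left out is not given here.

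Pools taken at the same hour on the 2 days were also set side by side, a split chosen after the values had been seen. In 71 of the 78 pairs (91.0%), an Lce1 gene was lower on the second day, against 52.0% of pairs over all genes tested. For 6 of the 13 (46.2%) this held at all 6 hours, as it did for Lor, and 350 of all genes tested (2.14%) had the same property. In a limma fit of the second day against the first with the hour of day as a block (12 pools, ZT50 left out), 0 genes were called over the whole array (0 of the 49), and 771 (4.73%) had an unadjusted p under 0.05. All 13 Lce1 genes were lower at that level, with a median difference of -0.27 log2 (smallest limma adjusted p in the complex 0.976). The pairs share pools, and the 13 genes are closely related neighbours, so these counts are not 13 separate observations.

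Other cell types moved over the same days. All 12 skeletal muscle markers had slopes above 0 (median 0.27 log2 per 24 h, 5 at an unadjusted p under 0.05), and their summed intensity was 42039 to 77229 on the first day and 47143 to 84671 later. With the muscle and adipocyte means as covariates, 12 of the 13 Lce1 genes kept an unadjusted p under 0.05 and the median slope of the family was -0.21. The share of all genes at that level in this refit is not given here. Suprabasal keratinocyte markers outside the complex had a median slope of -0.03, with 0 of 7 lower at an unadjusted p under 0.05 in limma, and a summed intensity of 34363 to 42785 on the first day and 33025 to 37670 later. Basal markers had a median slope of -0.06 with 2 of 7 lower at that level, Krt14 (-0.08) and Krt15 (-0.14), and a summed intensity of 44122 to 46863 and then 42046 to 44492. Inner root sheath markers had a median slope of 0.01 and 0 of 9 at that level, with sums of 89828 to 101470 and then 93059 to 101360. Hair shaft markers had a median slope of -0.06, with 7 of 8 below 0 and 2 of 8 lower at that level, Krt82 (-0.25) and Krt35 (-0.13; limma adjusted p = 0.325 and 0.373). Their summed intensity was 83350 to 99581 on the first day and 85520 to 99482 later. The refit with covariates held muscle and adipocyte means alone. No fit held keratinocyte or hair markers. The part of any cell type, muscle and fat included, in the Lce1 and Lor slopes was not tested. Hepatocyte transcripts were raised in the ZT46 pool (2.47 log2 above their own mean), and without that pool the 13 Lce1 genes all kept an unadjusted p under 0.05.

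**Figure D3:**
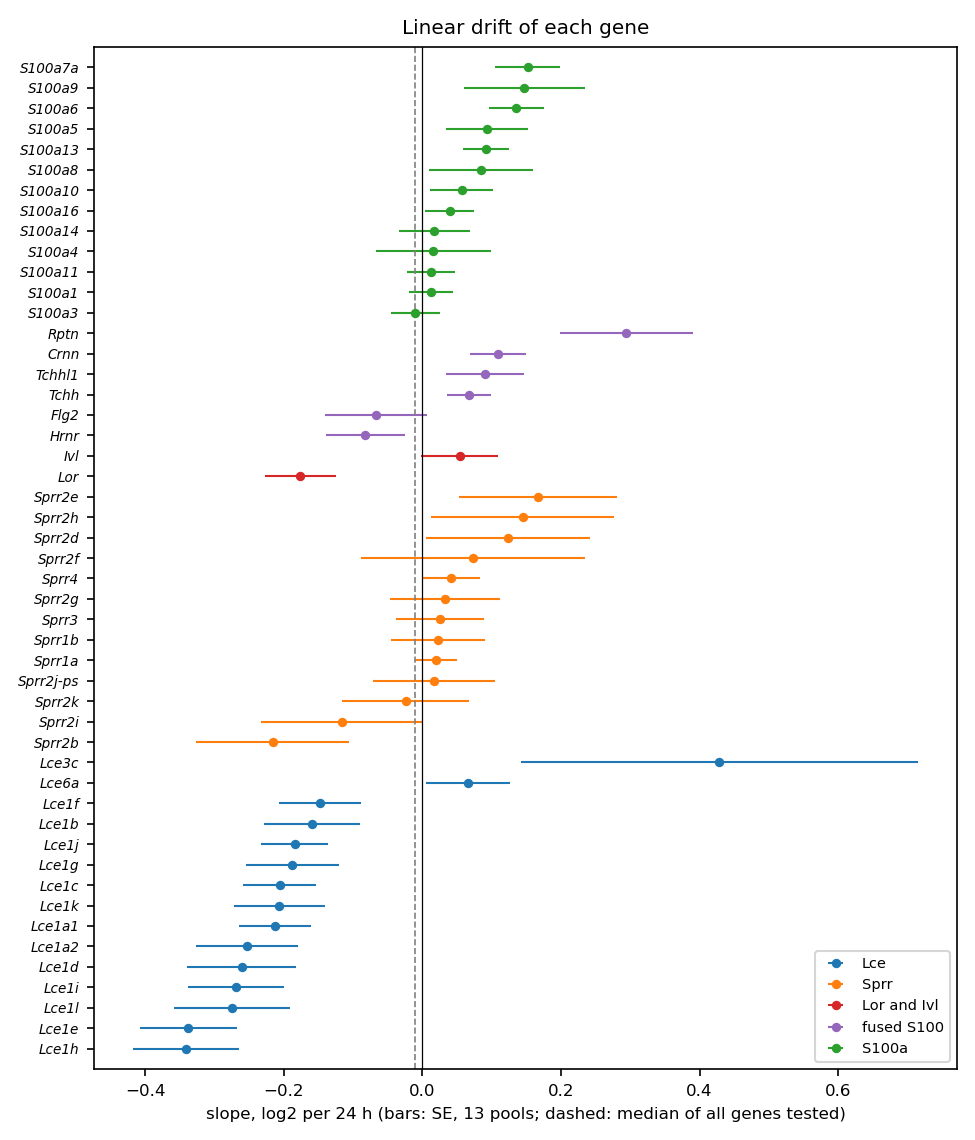
Linear slope of each of the 49 genes in log2 per 24 h, by family; points are the limma estimate and bars its SE over 13 pools, and the dashed line is the median of all genes tested (-0.01). The 13 Lce1 genes and Lor lie left of the dashed line, between -0.34 and -0.15, and most S100a genes lie right of it. Sprr2b (-0.22), Sprr2i (-0.12), Hrnr (-0.08), Flg2 (-0.07) and Sprr2k (-0.02) lie left of it too.

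Within the Lce1 block the pools varied together. Over the 13 pools the median Pearson r between pairs of Lce1 genes was 0.837 (78 pairs, range 0.556 to 0.983), and 0.707 with the linear trend taken out. Lor correlated with the Lce1 genes at a median r of 0.776, and of 0.50 (range 0.022 to 0.728) with the linear trend taken out. The median over all 1176 pairs of genes of the complex was -0.013, and over all pairs of genes tested it was 0.007. These values are descriptions over the 13 pools, and all genes of a pool were read from the same RNA on the same array. The Lce1 genes are closely related copies, so their probes may also take up each other's transcripts, which the files do not resolve.

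The sequences before the start sites of Lce1e, Lce1h and Lor are shown because these genes had low slopes together. They are the 250 bases upstream of the RefSeq start in GRCm38.p6, read on the minus strand at chr3:92709075-92709324 for Lce1e, chr3:92765066-92765315 for Lce1h and chr3:92083143-92083392 for Lor. Capitals mark the letters TGANTCA, the AP-1 core with 1 free base, searched on both strands.
Lce1e: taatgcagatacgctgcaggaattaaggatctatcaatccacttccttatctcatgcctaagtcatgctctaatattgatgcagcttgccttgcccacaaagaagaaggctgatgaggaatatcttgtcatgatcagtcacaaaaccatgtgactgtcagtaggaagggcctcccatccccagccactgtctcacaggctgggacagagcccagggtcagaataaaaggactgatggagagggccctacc
Lce1h: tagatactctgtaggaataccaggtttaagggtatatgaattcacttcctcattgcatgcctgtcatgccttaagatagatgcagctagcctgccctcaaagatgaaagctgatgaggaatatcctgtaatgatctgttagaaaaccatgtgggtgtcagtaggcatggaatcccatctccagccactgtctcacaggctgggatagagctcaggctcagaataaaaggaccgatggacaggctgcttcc
Lor: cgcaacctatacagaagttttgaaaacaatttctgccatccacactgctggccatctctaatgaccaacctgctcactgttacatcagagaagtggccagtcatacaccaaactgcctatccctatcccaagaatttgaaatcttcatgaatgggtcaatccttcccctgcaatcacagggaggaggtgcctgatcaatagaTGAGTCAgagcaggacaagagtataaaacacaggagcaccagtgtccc
Lce1e and Lce1h were identical at 79.1% of aligned bases, and pairs of Lce1 windows had a median identity of 65.2% (66 pairs, 50.5% to 85.6%). Lor with Lce1 windows had a median identity of 53.3%, close to the 52.0% between Lce1 and Sprr2 windows. TGANTCA was in 0 of 12 Lce1 windows, and in the Lor window it began 48 bases before the start. CACGTG was in none of these windows either. A missing match says only that these letters are not in the window shown.

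Lce3c belongs to a group of Lce genes known for induction in wounded and inflamed skin, and it had the widest range of the complex. It stood at 1205, 1568, 459.8, 457, 416 and 340.1 from ZT2 to ZT22, and at 1214, 1549, 693, 1795, 994, 856 and 995 from ZT26 to ZT50. The pools at ZT2, ZT6, ZT26, ZT30 and ZT38 were at 1205 or above and the other 8 at 995 or below. The highest pool was 5.28 times the lowest. The pools taken at 6 h were close to each other (1568 and 1549), whereas those at 14 h were 457 at ZT14 and 1795 at ZT38. Lce3a, Lce3b, Lce3e and Lce3f were below the filter, with means of 154, 173, 29.9 and 114, as was S100a2 with 167. The dimmest gene of the complex that passed was Sprr2b with a mean of 206.

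The Sprr2 genes encode envelope proteins that are induced by injury and ultraviolet light, and several of them were high and low in the same pools as Lce3c. Sprr2h was at 1359, 1426, 994, 888, 867 and 878 on the first day and at 1409, 1457, 1039.8, 1880.5, 1182, 1026 and 1219 later. Sprr2f was at 455, 519, 274, 223, 280.5 and 294 and then at 458, 618, 284, 526, 349, 289 and 351. In Sprr2h and in Sprr2f, the pools at ZT2, ZT6, ZT26, ZT30 and ZT38 were the 5 highest, as in Lce3c. In Sprr2j-ps, which RefSeq lists as a transcribed pseudogene, they were also the 5 highest, by a small margin (348 at ZT30 against 345 at ZT46). In Sprr2d, with 1315 at ZT38, ZT42 and ZT46 stood among the high pools too. Sprr2g, another transcribed pseudogene, was at 745, 803, 916, 592, 550.3 and 615 and then 719, 751, 657, 841, 759, 616 and 728, with its maximum at ZT10. Sprr2b ranged from 149 to 312, Sprr2e from 272 to 480.4, Sprr2i from 285 to 641 and Sprr2k from 294 to 491.

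Over the 13 pools Lce3c correlated with Sprr2h at r = 0.946, with Sprr2d at 0.909, with Sprr2j-ps at 0.894 and with Sprr2f at 0.883 (Spearman's rho 0.984, 0.846, 0.879 and 0.885). Without ZT22 and ZT18, the pools farthest from the median of Lce3c, r was 0.932, 0.924, 0.894 and 0.938. With Sprr2b it was -0.259, and between Lce3c and the Lce1 genes the median r was -0.158. Between Lce1 and Sprr2 genes the median r was -0.078 (117 pairs). The 9 Sprr2 genes varied together less tightly than the Lce1 genes, with a median r of 0.478 between pairs (36 pairs, range -0.344 to 0.906). Sprr1b, an envelope protein close to Sprr1a, also had ZT2, ZT6, ZT26, ZT30 and ZT38 as its 5 highest pools, with r = 0.733 and rho 0.802 to Lce3c. The margin was small here as well (9080 at ZT6 against 9067 at ZT50). Sprr2e, Ivl and Sprr2g followed Lce3c less closely (r of 0.683, 0.649 and 0.558), and Hrnr ran the opposite way (r = -0.667). A similar order of pools was thus seen in Lce3c, 4 Sprr2 genes and Sprr1b, and in part in Sprr2e and Ivl. It was not seen in the Lce1 block, which lies between the Sprr genes and Lce3c on the chromosome, as Ivl does. These relations were picked after the values had been seen and are given as descriptions, with no test. The Sprr2 genes are related copies too, so their probes may take up each other's transcripts, which was not resolved here.

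**Figure D4:**
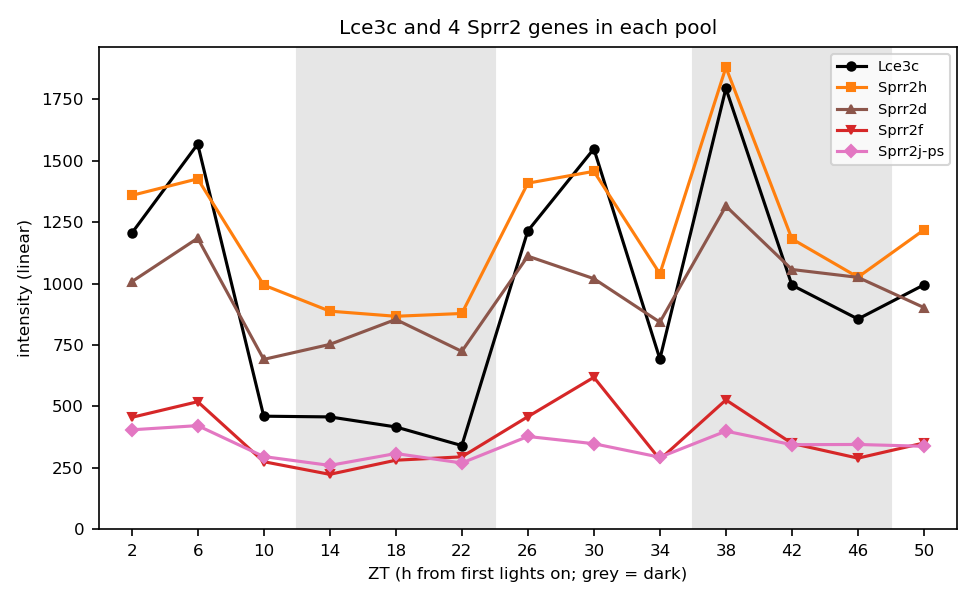
Intensity (linear scale) of Lce3c, Sprr2h, Sprr2d, Sprr2f and Sprr2j-ps in each pool over ZT in h, 1 pool per point; grey marks the dark. Lce3c, Sprr2h and Sprr2d were highest at ZT38, Sprr2f at ZT30 and Sprr2j-ps at ZT6, and Lce3c was lowest at ZT22 (340.1).

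Sequences before the Sprr2 starts are shown because they share a match at nearly the same place, which is the feature that sets them apart from the Lce windows. Each line gives 60 bases of the plus strand of chromosome 3 in GRCm38.p6, with TGANTCA in capitals on either strand. The stretches are chr3:92316484-92316543 for Sprr2b, chr3:92338921-92338980 for Sprr2d, chr3:92351924-92351983 for Sprr2e, chr3:92364964-92365023 for Sprr2f, chr3:92385461-92385520 for Sprr2h, chr3:92407772-92407831 for Sprr2i and chr3:92432360-92432419 for Sprr2k.
Sprr2b: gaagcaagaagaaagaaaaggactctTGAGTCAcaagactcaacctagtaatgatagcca
Sprr2d: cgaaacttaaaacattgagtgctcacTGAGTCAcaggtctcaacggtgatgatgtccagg
Sprr2e: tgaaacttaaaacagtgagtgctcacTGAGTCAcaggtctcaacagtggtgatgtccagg
Sprr2f: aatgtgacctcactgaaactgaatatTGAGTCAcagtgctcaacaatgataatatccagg
Sprr2h: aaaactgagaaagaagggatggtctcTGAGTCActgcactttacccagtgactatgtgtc
Sprr2i: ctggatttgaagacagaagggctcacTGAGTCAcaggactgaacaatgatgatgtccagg
Sprr2k: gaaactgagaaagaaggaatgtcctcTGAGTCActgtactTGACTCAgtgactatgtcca
The first match began 193 to 198 bases before the start in all 7 windows, and Sprr2k held another at 182 bases. TGANTCA was in 7 of 7 Sprr2 windows (100.0%), 9 of 11 Sprr windows (81.8%), 17 of 52 windows of the complex (32.7%) and 6.75% of the 32851 RefSeq windows of the same length. The other matches were in Sprr1a, Sprr1b, Lor, Ivl, Crnn, Flg2, Rptn, Tchhl1, S100a11 and 1 of the S100a16 windows. CACGTG was in 2 of 52 windows (3.85%), those of Lce3a and S100a11, and in 6.02% of all windows. The table held windows for 48 of the 54 genes. Sprr2 windows were identical to each other at a median of 65.8% of aligned bases (21 pairs), so the shared match is not 7 separate occurrences. Sprr2b, Sprr2i and Sprr2k held the match as well, while their levels followed Lce3c less closely (r of -0.259, 0.382 and 0.377).

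The upstream window of Lce3c held neither motif. It is printed for comparison with the Sprr2 stretches, as 250 bases of the plus strand at chr3:92944236-92944485 (GRCm38.p6).
Lce3c: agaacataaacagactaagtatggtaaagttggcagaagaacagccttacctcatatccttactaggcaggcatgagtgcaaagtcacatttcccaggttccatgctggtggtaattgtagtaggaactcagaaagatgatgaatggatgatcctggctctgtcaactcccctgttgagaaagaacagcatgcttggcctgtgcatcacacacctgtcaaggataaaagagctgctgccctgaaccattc
It was identical to the Sprr2 windows at a median of 52.1% of aligned bases and to the Lce1 windows at 53.5%.

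Ivl and the remaining Sprr genes varied less than Lce3c. Ivl, the first scaffold of the envelope, was at 4762, 5621, 4603, 4987, 5287 and 4783 on the first day and at 6031, 5611, 5042, 5761, 4946, 4975 and 5267 later. Its highest pool was ZT26, and the 2 days overlapped. Sprr1b was at 9405, 9080.4, 8120.5, 7114, 7593 and 8321 and then at 10008, 9294, 7665, 9685, 8844, 7207 and 9067, highest at ZT26 and lowest at ZT14. Sprr4 ranged from 8754 to 10375 and Sprr3 from 188 to 262.

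Among the fused S100 genes, Rptn, which encodes repetin, had the widest range. It was at 294, 479.8, 411, 401, 473 and 425 on the first day and at 599.9, 615, 626, 491, 408, 516 and 487 later, so the lowest pool was ZT2 and the 3 highest were ZT26, ZT30 and ZT34. Its slope was 0.29 ± 0.10 log2 per 24 h (SE, limma adjusted p = 0.406), and 0.16 without ZT2. Hornerin (Hrnr), a filaggrin-like protein, was at 6790.0, 7271, 6899, 8421, 7921 and 7283 and then at 6699, 6049.6, 7225, 6331, 6475, 7762 and 6798, highest at ZT14 and lowest at ZT30. Tchhl1 was at 5765, 6236, 6204, 5841, 6922 and 6538 on the first day and at 7094, 6778, 7312, 7852, 6159, 6084 and 6427 later, with its maximum at ZT38. Cornulin (Crnn) had a slope of 0.11 ± 0.04 (SE, limma adjusted p = 0.476) and was at 8548 to 9730 on the first day and 9248 to 10528 later. Filaggrin 2 (Flg2) ranged from 2448 to 3694.

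Of the 13 S100a genes tested, 12 had slopes above 0 (median 0.06, 11 of 13 under quantile normalization), as had 7097 of all 16322 genes (median -0.01). At an unadjusted p under 0.05 in limma 3 of the 13 were higher, against 3.22% of all genes. Some of the slopes were near 0, such as those of S100a1 and S100a11 (0.01 each). S100a6, calcyclin, was at 4465, 4590.0, 4571, 3781, 4276 and 4675 from ZT2 to ZT22 and at 5252, 5145, 4636, 4774, 4894, 5163 and 5082 from ZT26 to ZT50. It was higher on the second day at each of the 6 shared hours, as were S100a7a, Sprr2e and Sprr2h (4 of 49 in all) and 213 of all genes tested (1.3%), and ZT14 was its lowest pool. The slope was 0.14 ± 0.04 log2 per 24 h (SE, limma adjusted p = 0.365). S100a7a, a relative of human psoriasin, was at 2695, 2680.4, 2585, 2209.8, 2657 and 2815 on the first day and at 3084, 3002, 3062, 3115, 2685, 2881 and 3110.3 later. ZT14 was again the lowest pool, and the slope was 0.15 ± 0.05 (SE, limma adjusted p = 0.373). S100a13 had a slope of 0.09 ± 0.03 (SE, limma adjusted p = 0.463), with pools from 872 to 1061.

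S100a8 and S100a9, which form the antimicrobial dimer calprotectin, were dim, with means of 259 ± 32.7 and 212 ± 35.3 (SD, n = 13). Of 11 neutrophil markers 4 passed the filter on dim probes, and Ly6g, Cxcr2, Ngp, Ltf, Mmp8, Retnlg and Mpo did not. The summed intensity of the 4 was 2808 to 3201 over the pools. S100a4, expressed by fibroblasts and macrophages, ranged from 510.1 to 839.9. S100a3, a protein of the hair cuticle, was steady at 9528 to 10942. S100a11 had a pair of probes of its own symbol, with mean log2 values of 13.75 and 13.68. S100a10 ranged from 6362 to 7969 and S100a16 from 6939 to 8380.

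The series title concerns daily rhythms in the epidermis, and a 24 h wave was fitted to every gene. In limma 23 of the 16322 genes (0.141%) had a wave at an adjusted p under 0.05, and 0 of the 49 genes of the complex were among them. At an unadjusted p under 0.05 the numbers were 1557 genes (9.54%) and 2 of the 49, S100a14 and S100a6, a smaller share with all pools in (4.08%). The count in the complex was 8 without ZT38 (16.3%, against 8.72% of all genes), 5 without ZT50 (10.2% against 8.99%), and 1 to 4 without any other single pool, a smaller share than that of all genes in each of those refits. The median fold from peak to trough was 1.10 in the complex and 1.09 over all genes.

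S100a14, an S100 protein of epithelia, was at 2976, 3112, 3207, 2812, 2551 and 3411 on the first day and at 3458, 3380.0, 2808, 2578, 2653, 3313 and 3249 later. The 4 pools at 14 and 18 h lay between 2551 and 2812, and the others between 2808 and 3458. The fitted fold was 1.26 (amplitude 0.16 ± 0.04 log2, SE, 13 pools) with a peak at 3.2 h after lights on (limma adjusted p = 0.404). S100a6 had a fold of 1.15 with a peak at 3.4 h (limma adjusted p = 0.486), and S100a7a a fold of 1.15 with a peak at 4.7 h (limma adjusted p = 0.552). These 3 genes lie in the same S100a cluster and had fitted peaks early in the light (SE 1.1, 1.3 and 1.6 h). The cluster had no common peak. S100a16, S100a8, S100a1 and S100a4 had fitted peaks at 2.3, 4.8, 8.1 and 8.5 h. Those of S100a9, S100a5, S100a13 and S100a3 were at 13.3, 17.4, 23.0 and 23.9 h.

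Larger folds came with larger errors. Lce3c had a fold of 2.29 (amplitude 0.60 ± 0.25 log2, SE, 13 pools) with a peak at 5.8 h (limma adjusted p = 0.567), and Sprr2f a fold of 1.60 (0.34 ± 0.14, SE) with a peak at 5.1 h (limma adjusted p = 0.559). Sprr2g, Sprr1b and Rptn had folds of 1.28, 1.17 and 1.32, with fitted peaks at 7.8, 4.1 and 7.8 h (limma adjusted p from 0.556 to 0.621). By time of day, Lce3c was at 1558 ± 13.6 (SD, n = 2) at 6 h and at 1126 ± 946 (SD, n = 2) at 14 h. The high 14 h pool of the second day thus stood against the low 14 h pool of the first. The fold of Lce3c ranged from 1.95 to 2.79 when 1 pool was left out, lowest without ZT6 and highest without ZT38. By hour of day its measured mean ran from 576 at 10 h to 1558 at 6 h (n = 2 each). In a fit with times of day as a factor and linear time, the fitted values of the highest and lowest hour lay 3.55-fold apart on the log2(intensity + 16) scale (limma adjusted p = 0.998).

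In the Lce1 family the folds ran from 1.03 to 1.18, with Lce1g the largest (peak at 6.0 h, limma adjusted p = 0.627). The Lce1c fold was 1.10. Lor had a fold of 1.05 and Ivl one of 1.08 (limma adjusted p = 0.917 and 0.848). Hrnr had a fold of 1.14 with a peak at 18.1 h, and Tchhl1 one of 1.10.

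**Figure D5:**
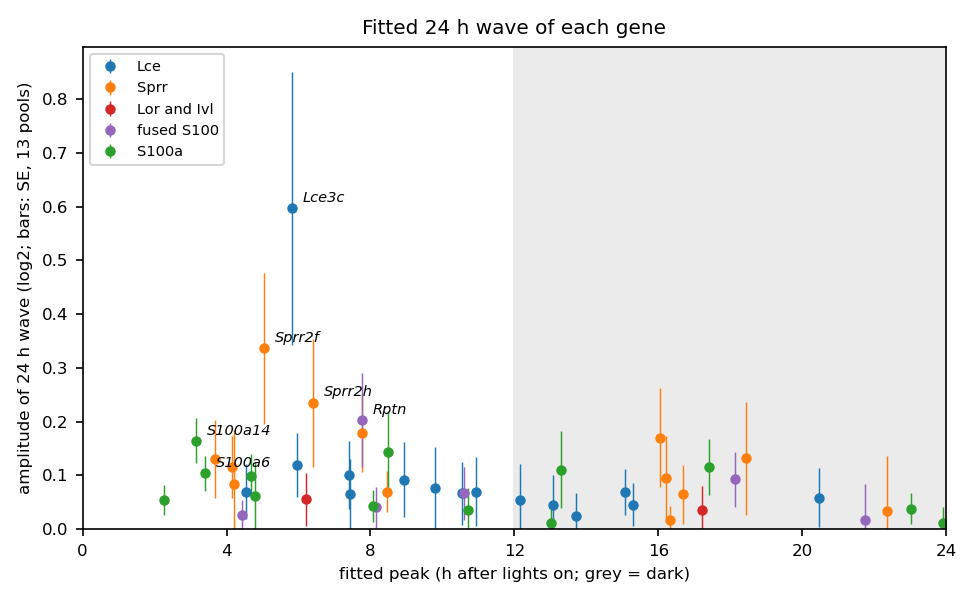
Fitted 24 h wave of each of the 49 genes: amplitude in log2 (points, with SE bars over 13 pools) against the fitted peak in h after lights on, coloured by family, with the dark shaded. Lce3c (0.60) and Sprr2f (0.34) have the largest amplitudes with wide bars, and S100a14 (0.16) has a narrower one; no gene of the complex was called.

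Light and dark were compared directly over the 7 pools taken in the light and the 6 taken in the dark, with linear time in the fit. In limma 1 of 16322 genes (0.00613%) was called and none of the 49, and at an unadjusted p under 0.05 there were 2029 genes (12.4%) and 3 of the 49 (6.12%). The count in the complex was 8 without ZT38 (16.3%, against 9.86% of all genes), 7 without ZT34 (14.3% against 9.17%), 6 without ZT22 (12.2% against 19.96%), and 1 to 5 without any other single pool, there a smaller share than that of all genes. S100a7a was at 2888 ± 225 (SD, n = 7) in the light and 2727 ± 302 (SD, n = 6) in the dark, a difference of -0.13 ± 0.06 log2 (SE, limma adjusted p = 0.377). S100a6 had a difference of -0.12 ± 0.05 (SE, limma adjusted p = 0.394). S100a5 had the opposite sign, at 251 ± 27.2 in the light and 288 ± 26.0 in the dark (SD, n = 7 and 6), and its difference was 0.16 ± 0.07 log2 (SE, limma adjusted p = 0.383). Its pools were at 224, 222, 278, 298, 262 and 251 on the first day and 289, 252, 227, 292, 304, 319 and 262 later, and light and dark overlapped. Beyond these, Sprr2g differed by -0.21, Lce1c by 0.12 and Hrnr by 0.13 log2 in the dark against the light (limma adjusted p = 0.411, 0.407 and 0.428).

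Genes that act around the complex were read from lists by role. In the 5 lists 0 genes were called for wave, drift or light against dark in limma, and the counts given for each list are at an unadjusted p under 0.05. Over all genes tested, the shares at that level were 9.54% for the wave, 5.59% lower and 3.22% higher with time, and 12.4% for light against dark. Of 6 measured neighbours outside the rule 0 had a wave, 1 had a drift, which was lower, and 0 differed between light and dark. That gene was Kprp, keratinocyte proline-rich protein, with a slope of -0.19 ± 0.05 log2 per 24 h (SE, limma adjusted p = 0.353), close to that of Lor. Kprp and Pglyrp4, which encodes a receptor of bacterial cell walls, had the smallest wave p of that list, each with a fold of 1.12 (limma adjusted p = 0.702 and 0.714).

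Of 17 genes that cross-link or anchor the envelope, 2 had a wave, 1 was higher with time, and 4 differed between light and dark, 1 of them higher in the dark. Csta1, a cysteine protease inhibitor, had a fold of 1.28 with a peak at 6.7 h (limma adjusted p = 0.250). Tgm3, a transglutaminase of the upper epidermis and hair, had a fold of 1.26 with a peak at 5.2 h (limma adjusted p = 0.477). Envoplakin (Evpl) had a slope of 0.09 ± 0.04 (SE, limma adjusted p = 0.515). Tgm1, another transglutaminase of the envelope, named for its role, had a fold of 1.04.

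Of 19 genes of filaggrin processing and shedding of the horny layer, 0 had a wave, 3 were lower with time (Klk14, Klk8 and Hal), and 1 was higher in the dark. Klk14, a protease of the horny layer, had a slope of -0.21 ± 0.05 log2 per 24 h (SE, limma adjusted p = 0.301). Uroc1, which breaks down urocanic acid, had a fold of 1.21 with a peak at 17.1 h (limma adjusted p = 0.590), and Ctsh, a cathepsin, one of 1.12.

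Of 14 measured genes of the barrier lipids, 1 had a wave, 4 were lower with time (Alox12b, Aloxe3, Elovl4 and Fa2h), 2 were higher in the dark and 1 in the light. Elovl4, which makes very long fatty acids for ceramides, had a fold of 1.18 with a peak at 16.3 h (limma adjusted p = 0.442). Alox12b, a lipoxygenase that allows lipids to be fixed to the envelope, had a slope of -0.20 ± 0.06 (SE, limma adjusted p = 0.385). Cers3, a ceramide synthase, had a fold of 1.09 with a peak at 4.1 h. The median slope of this list was -0.07.

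Of 27 measured regulators of keratinocyte differentiation, 4 had a wave (Junb, Cebpb, Ehf and Nfe2l2) 2 were higher with time (Arid3a and Ehf), and 4 were higher in the light. Junb, a partner in AP-1, had a fold of 1.26 with a peak at 4.0 h (limma adjusted p = 0.442), and Cebpb one of 1.18 at 4.6 h (limma adjusted p = 0.477). Arid3a had a slope of 0.11 ± 0.04 (SE, limma adjusted p = 0.488). Klf4 and Grhl3, named for their part in forming the barrier, had folds of 1.02 and 1.04. The medians of slope were -0.06 for the neighbours, -0.02 for cross-linking, -0.03 for processing and -0.02 for the regulators, and none was as low as that of the Lce1 genes. Single genes did lie within the Lce1 range, among them Klk8 (-0.22), Klk14 (-0.21), Alox12b (-0.20), Kprp (-0.19), Hal (-0.17) and Fa2h (-0.17). Within the complex Sprr2b (-0.22 ± 0.11, SE) and Lor (-0.18) did so too. Slopes were below 0 in 5 of 6 neighbours, 11 of 17 cross-linking, 13 of 19 processing and 12 of 14 barrier lipid genes. The same held for 18 of 27 regulators and 9225 of all 16322 genes tested.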

How the data were processed

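RNA of 13 pools of whole back skin was measured on 1-colour Affymetrix whole-transcript arrays. Judged from their range, the values deposited by the authors are linear intensity per probe. The submitters' processing notes name PLIER 2.0 and Affymetrix Expression Console 1.1.1 without saying what each did. The scaling between arrays and the genome build are not given in the sources used here. The number of arrays limits the precision.

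Intensities were converted to log2(intensity + 16), so folds of dim genes are understated. Of 35557 probes 21789 carry 1 symbol, 1621 several and 12147 none in the platform annotation used. Probes with 1 symbol were kept if their mean reached 7.61 log2, the 25th percentile over the array, and the highest mean stood for a gene, which left 16322 genes. limma 3.58.1 (R 4.3.3) fitted cosine and sine of a 24 h period with linear time over the 13 pools; drift is the time term, and the fold runs from peak to trough. Dark was set against light in a fit that also held linear time. P-values were adjusted over all genes (Benjamini-Hochberg), with calls under 0.05. The fits were tested on simulated data first.

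Named were the 3 genes of each family with the smallest wave p, the 3 with the smallest drift p and the 3 with the smallest light-dark p in each direction, and the 3 with the largest SD. From each role list, the 2 with the smallest wave p and the 1 with the smallest drift p were named. Others, such as Lor, Lce1j and Sprr2d, were chosen after their values were seen. The genes, lists and tests were chosen with earlier results of these data known. Upstream sequences (250 bases) came from RefSeq (GRCm38.p6), searched and aligned with Biopython 1.88 in Python 3.11.15, and figures were drawn with matplotlib 3.10.9. Other settings tried were median centring, quantile normalization, a pseudocount of 1 or 64, other filters on dim probes, every probe kept, a robust prior with intensity trend, muscle and adipocyte means as covariates, other time terms, times of day as a factor, and leaving out each pool. A fit of the second day against the first with the hour of day as a block was added after seeing the data.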

Additional observations from a re-analysis of the deposited data

How the results depend on the processing

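In the 25 refits for wave, 24 for drift and 23 for light against dark, 0 of the measured genes of the complex were called by limma, and every named slope and light-dark difference kept its sign. All 13 Lce1 slopes stayed below 0, or 12 of 12 under the 50th percentile filter, which drops Lce1a2. Over all genes, the 23 with a wave became 15 without a filter, 9 with the muscle and adipocyte covariates, 9 with times of day as a factor, and 13 to 30 with 1 pool left out. The single gene called for light against dark became 0 under quantile normalization, a pseudocount of 64, no filter, or the intensity trend with robust prior. It became 2 under the 50th percentile filter, with the covariates or without linear time, and 0 to 4 with 1 pool left out. The cause was not tested. Of the genes of the complex, those with a wave at an unadjusted p under 0.05 numbered 2, and 8 without ZT38, 5 without ZT50, 4 without ZT18 or ZT34 and 1 without ZT14 or ZT26. They numbered 6 under median centring (12.2%, against 10.5% of all genes). For light against dark 3 became 8 without ZT38, 7 without ZT34, 6 without ZT22, 5 without ZT10, ZT18 or ZT50, 1 without ZT14 or ZT26, and 6 under median centring. The last is 12.2% of the genes of the complex. The share of all genes under centring is not given here. The 12.4% of all genes is from the fit without centring, so these shares come from unlike fits. Drift counts at an unadjusted p under 0.05 lay between 14 and 21, around 19. In the main fit 5.59% of all genes were lower with time and 3.22% higher at that level. Shares of all genes in the drift refits are not given here, apart from that of the second day against the first. The labels number no replicates across the days, so pools were paired by hour of day, a fit chosen after seeing the data: with the hour as a block over 12 pools, the drift calls stayed at 0 over all genes, 21 genes of the complex and all 13 Lce1 genes had an unadjusted p under 0.05, and the Lce1 median was -0.27. With 1 array per time and RNA of 3 mice mixed, small waves may go uncalled, and signal near background limits Lce3a, Lce3b, Lce3e, Lce3f and S100a2.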

Other observations

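The array also holds 4 probes that name several genes of the complex at once and so stand outside the rule. The probe shared by Sprr2a1, Sprr2a2, Sprr2a3 and Sprr2b had a mean of 2946 and was highest at ZT6 (3698) and lowest at ZT50 (2396). A pair of probes for Sprr2a1 and Sprr2a3 had identical values in every pool, from 1387 at ZT50 to 2148 at ZT2. The fitted slopes of these Sprr2a probes were all -0.15 log2 per 24 h. Those of Sprr2b (-0.22) and Sprr2i (-0.12) were below 0 too, whereas Sprr2h, Sprr2d and Sprr2f had slopes of 0.14, 0.12 and 0.07. The probe that names 6 Lce3 genes, Lce3c among them, had a mean of 1634. It was highest at ZT38 (2223), then at ZT6 (2139), and lowest at ZT22 (1217), the same extremes as the probe of Lce3c alone. Its fitted fold from peak to trough was 1.16, against 2.29 for Lce3c. These probes were not tested, and which gene gave their signal is not resolved by the files.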
